A study of Homo sapiens with 29 samples.

Results

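HepG2 cells treated with CCL for 18 h were compared with untreated HepG2 cells at 18 h. The arrays were chosen by their sample titles alone, which gave 5 of the 29 arrays of the series, 3 of CCL-treated and 2 of untreated cells. HepG2 is an established human liver tumour line that still secretes many plasma proteins of hepatocytes. The series title names a herb, Cratoxylum cochinchinense Lour., and the sample labels write CCL. The whole series followed the cells from 0 to 48 h, with total RNA measured on Affymetrix arrays after biotin labelling. Both groups are the same line at the same time, and the labels name no allele, second agent, dose or vehicle for either. Titles number the arrays by set. CCL-treated cells have sets 1, 2 and 3 at 18 h and untreated cells have sets 1 and 3. The labels explain neither what a set is nor if each array had a culture of its own, so p-values reflect the spread among these arrays, which may be technical. RNA of whole cultures was measured, so fewer cells of a kind and less RNA per cell cannot be told apart.

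Many of the genes described here belong to a few well-studied pathways. When amino acids run short or proteins misfold, phosphorylation of the initiation factor eIF2 favours translation of ATF4, a transcription factor that with CHOP drives genes of amino acid supply, aminoacyl-tRNA synthetases and secreted stress signals such as GDF15. Growth factor receptors signal through the kinase ERK, which induces transcription factors of the AP-1 family (FOS and JUN relatives) and, as feedback, phosphatases that switch the kinases off again. In liver cells, transcription factors such as FOXA1, ONECUT1 and HHEX keep up the hepatocyte programme, while SREBP2 drives cholesterol synthesis.

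The arrays at 18 h differed from each other before any comparison. Untreated set 1 had the lowest median of all 29 arrays over its 53617 deposited log2 values, 2.29, and CCL set 3 the highest, 3.39, while the other 3 arrays of 18 h lay between 2.98 and 2.99. All arrays were therefore quantile-normalized together, which gives each the same distribution. Untreated set 1 still stood apart. Its correlation with untreated set 3 was 0.934 over the probe sets, while the CCL arrays correlated with each other at 0.953 to 0.980. Untreated set 3 correlated with CCL sets 1, 2 and 3 at 0.945, 0.951 and 0.916. It was thus closer to CCL sets 1 and 2 than to untreated set 1. The mean SD between arrays was 0.269 in untreated cells and 0.217 with CCL. Every value below is log2 expression after this normalization unless another scale is named. The words called, rose and fell are kept for genes where limma, estimating 1 spread per gene over all 29 arrays, gave an adjusted p under 0.05 over the 6365 genes tested, and errors of differences are standard errors from that fit, 3 CCL against 2 untreated arrays. Most hepatocyte markers were abundant on all 5 arrays, and 12 of 13 measured markers passed log2 5 on at least 1 array. Of these FOXA3 lay under log2 5 on untreated set 3 (4.74) and CCL set 1 (4.79). The mean of the 13 was 9.36 to 9.54 in untreated cells and 9.16 to 9.28 with CCL. Fibroblast markers never reached log2 5 (0 of 4), and of 9 endothelial markers ESAM alone did (1.18 ± 0.34, adjusted p = 0.0454, and no call without any 1 array).

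**Figure D1:**
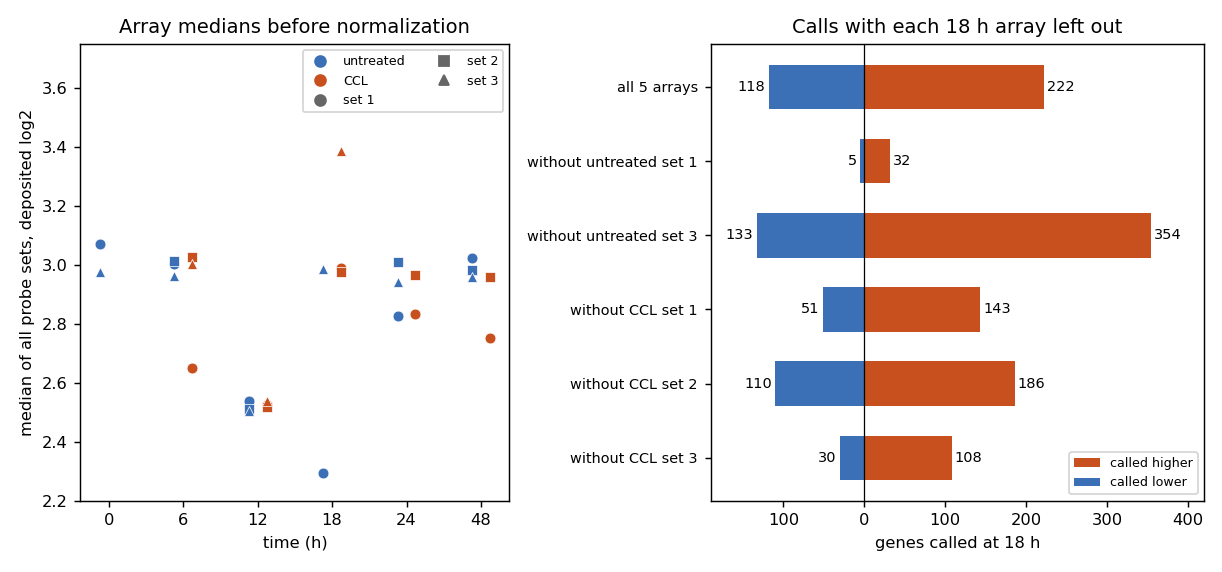
Left, the median of all deposited log2 values on each of the 29 arrays by time, untreated (blue) and CCL-treated (orange), with marker shapes for the sets. Right, genes called higher and lower at 18 h with all 5 arrays and with each left out; untreated 18 h set 1 is the lowest point on the left (2.29), and without it 32 genes were called higher and 5 lower.

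With CCL 222 genes were called higher and 118 lower, 3.49% and 1.85% of the genes tested and 5.34% together. All 3 CCL arrays lay above both untreated arrays for 1152 genes (18.1%) and below both for 1147 (18%), so a gene whose groups do not overlap is common in this comparison. Of the 340 called genes 336 had groups that did not overlap. In 73 of them 1 whole group lay under log2 5, the untreated arrays of 49 genes that rose and the CCL arrays of 24 that fell. The files hold no detection call, and where such a dim group is at background the difference given is a lower bound, so the order of these genes by size is uncertain. The balance depends on the scaling. On the deposited values, where the median over all genes was itself 0.41 higher with CCL, limma called 772 genes higher and 11 lower, while the median difference was -0.00 after normalization. The shares called higher were 98.6% and 65.3%. Untreated set 1 carried much of the count. Without it 32 genes were called higher and 5 lower, 36 of the 340 calls being kept, whereas without untreated set 3 there were 354 and 133. Without CCL set 3 they numbered 108 and 30, and without CCL set 1 they numbered 143 and 51. The sign of all 340 differences was the same with any 1 of the 5 arrays left out. For the 336 genes whose groups did not overlap, leaving out 1 array cannot turn the sign.

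**Figure D2:**
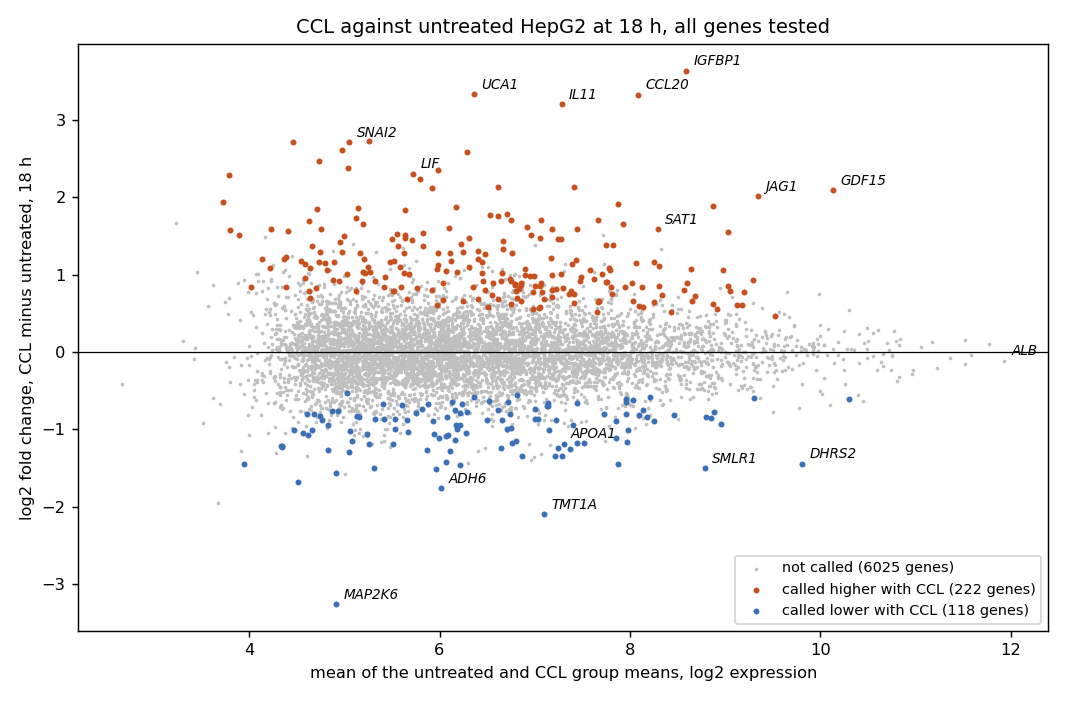
Each point is 1 of the 6365 genes tested, with its mean log2 expression over the untreated and CCL group means on the horizontal axis and its log2 difference, CCL minus untreated at 18 h, on the vertical axis. Genes called higher (222, orange) reach 3.64 with IGFBP1 and genes called lower (118, blue) reach -3.26 with MAP2K6, while ALB, the most abundant gene labelled, lies near 0.

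Genes of several secreted signals and of a cytokine receptor rose. IGFBP1, which encodes a liver-secreted binding protein of insulin-like growth factors, read 6.26 and 7.28 on untreated sets 1 and 3 and 10.18, 10.21 and 10.83 on CCL sets 1, 2 and 3, an order kept below, with the untreated pair first. Every CCL array was far above both untreated arrays, and IGFBP1 was 12.4-fold higher (log2 difference 3.64 ± 0.48, adjusted p = 8.47e-05). IL11, for interleukin-11, a member of the interleukin-6 family, stood at 5.51 and 5.85 in untreated cells and at 8.46, 8.75 and 9.44 with CCL. It was 9.21-fold higher (3.20 ± 0.36, adjusted p = 2.45e-05), with the groups wide apart. LIF, of the same family, went from 4.89 and 4.26 to 6.68, 6.53 and 7.43, a difference of 2.31 ± 0.43 (adjusted p = 0.00237). IL6R, the ligand-binding receptor subunit for interleukin-6, went from 6.36 and 6.06 to 7.86, 7.92 and 7.98 (1.71 ± 0.26, adjusted p = 0.000433). These 3 of the 11 tested genes of the interleukin-6 family and its receptors rose and 0 fell, beside 3.49% of all genes called higher. The other 8, among them the signal carriers JAK1 (0.07), TYK2 (-0.07) and STAT3 (-0.17), were not called, and the median of the list was 0.19 (-0.01 without untreated set 1 and 0.33 without CCL set 3). IGFBP1, IL11, LIF and IL6R stayed called whichever of the 5 arrays was left out (highest adjusted p 0.003 to 0.0294).

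The promoters of IL11 and IL6R are shown because both hold an AP-1 motif, TGANTCA. Whether AP-1 acts on either gene here was not tested. They run 5′ to 3′ from 250 bases before to 50 after the gene's start in the RefSeq annotation of GRCh38.p14, with the motif in capitals. IL11 lies at chr19:55370414-55370713 on the minus strand and IL6R at chr1:154405093-154405392 on the plus strand.
IL11: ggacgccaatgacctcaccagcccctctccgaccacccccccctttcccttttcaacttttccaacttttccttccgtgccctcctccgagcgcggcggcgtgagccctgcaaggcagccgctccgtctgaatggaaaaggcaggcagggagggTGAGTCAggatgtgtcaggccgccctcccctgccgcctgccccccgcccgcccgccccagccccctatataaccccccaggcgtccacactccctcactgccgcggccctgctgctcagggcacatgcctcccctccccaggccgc
IL6R: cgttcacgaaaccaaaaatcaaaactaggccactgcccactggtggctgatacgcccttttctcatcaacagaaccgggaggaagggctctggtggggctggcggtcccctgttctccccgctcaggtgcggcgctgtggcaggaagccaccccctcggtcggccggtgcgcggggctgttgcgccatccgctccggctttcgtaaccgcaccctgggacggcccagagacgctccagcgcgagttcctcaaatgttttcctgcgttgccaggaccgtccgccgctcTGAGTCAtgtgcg
The motif starts 96 bases before the start of IL11 and 37 bases after that of IL6R. Searched on both strands, it stood in 17 of the 171 genes called higher that have a promoter in the table (9.94%) and in 2 of 89 called lower (2.25%). It stood in 5.86% of 5140 tested genes and in 9.37% of all 27305 promoters of that length. Such a match describes letters in the window, not a bound site.

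CCL20, a chemokine gene whose name has nothing to do with the herb's abbreviation, varied widely between the untreated arrays. It read 5.30 and 7.55 in untreated cells and 9.62, 9.45 and 10.19 with CCL. The untreated pair differ by more than 2 log2 units, yet both lie below all CCL arrays, and the difference was 3.33 ± 0.51 (adjusted p = 0.000487). IRAK2, a kinase of interleukin-1 receptor signalling, was higher by 0.85 ± 0.18 (adjusted p = 0.00576). They were the 2 of 9 tested NF-kB and inflammatory targets that rose, and 0 fell, beside 3.49% of all genes called higher. CXCL8 (0.87 ± 0.58), ICAM1 (0.41 ± 0.25), NFKB1 (0.08 ± 0.19) and RELB (-0.01 ± 0.25) were not called, and the list's median was 0.16 (0.41 without untreated set 1, 0.27 without CCL set 2 and 0.25 without CCL set 3). Without untreated set 1 neither CCL20 (adjusted p = 0.0629) nor IRAK2 (adjusted p = 0.0629) was called. GDF15, a secreted stress cytokine, read 9.11 and 9.06, then 11.02, 10.86 and 11.66, with untreated arrays that agree and CCL arrays well above them, and rose 4.27-fold (2.09 ± 0.27, adjusted p = 6.13e-05). STC2, the secreted glycoprotein stanniocalcin 2, read 5.47 and 5.81, then 7.47, 7.16 and 7.61 and rose by 1.77 ± 0.24. JAG1, a Notch ligand held on the cell surface, read 8.16 and 8.51 in untreated cells and 10.38, 10.10 and 10.58 with CCL. JAG1 rose by 2.02 ± 0.25 (adjusted p = 3.4e-05), the only call among 8 tested genes of the Notch pathway, where NOTCH2 (-0.18 ± 0.30) and RBPJ (-0.61 ± 0.59) were not called. GDF15, STC2 and JAG1 kept their calls with any 1 array left out.

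**Figure D3:**
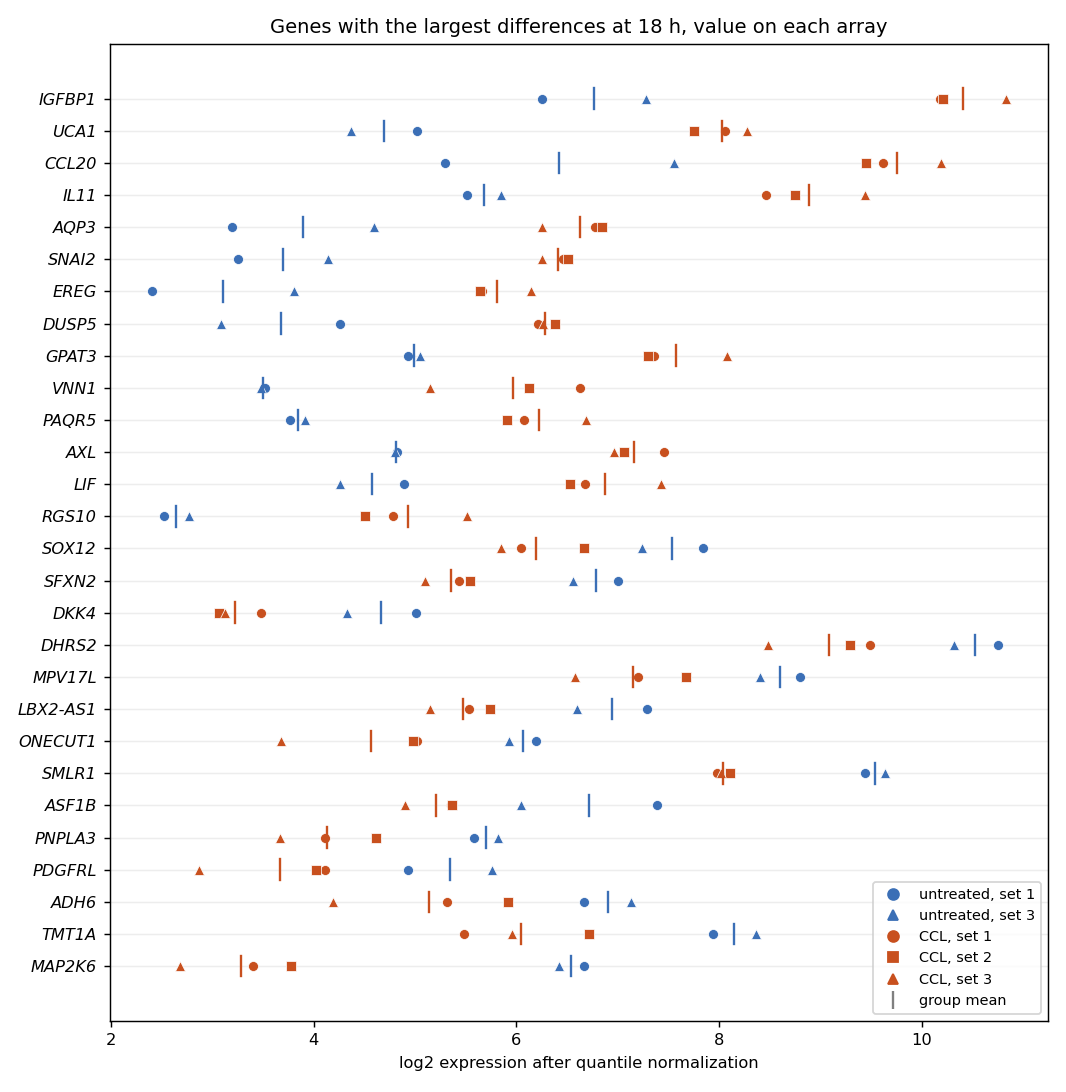
Log2 expression after quantile normalization of the 14 genes called with the highest and the 14 with the lowest difference at 18 h, each point 1 array (blue untreated, orange CCL, marker shape the set) and each bar a group mean. The orange points lie to the right of both blue points for the upper 14 genes and to the left for the lower 14, and the blue points are widest apart for CCL20 (5.30 and 7.55).

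Some genes that mark signalling through ERK rose, from a ligand of its receptors to the phosphatases that switch it off. EREG, which encodes epiregulin, a ligand of the EGF receptor, read 2.41 and 3.80 in untreated cells and 5.66, 5.64 and 6.14 with CCL, so it was near the dim end of the scale without the herb and clearly measured with it. The difference was 2.71 ± 0.47 (adjusted p = 0.00123). DUSP5, a nuclear phosphatase of ERK, read 4.26 and 3.09, then 6.22, 6.38 and 6.26, a difference of 2.61 ± 0.52 (adjusted p = 0.00417). The CCL arrays lie within 0.2 of each other. A second, dimmer probe set of DUSP5 gave -0.41, and with the mean of both DUSP5 was not called (adjusted p = 0.161). DUSP6, the cytoplasmic ERK phosphatase, read 6.54 and 6.59, then 7.67, 7.71 and 7.98 and rose by 1.22 ± 0.21 (adjusted p = 0.00118). Among AP-1 subunits FOSL1 rose by 1.76 ± 0.41 and FOSL2 by 0.83 ± 0.19, whereas FOS (-0.10 ± 0.28), FOSB (0.18 ± 0.37), JUN (0.80 ± 0.35), JUNB (0.33 ± 0.37) and JUND (0.46 ± 0.28) were not called. IER3, an early response gene with 11 probe sets, rose by 1.55 ± 0.31 (0.52 to 1.62 over its probe sets, with an adjusted p of 0.0538 for IER3 when all are averaged). KLF6, a zinc-finger transcription factor, rose by 1.15 ± 0.30, the receptor tyrosine kinase gene EPHA2 by 1.01 ± 0.18 and MCL1, an anti-apoptotic relative of BCL2, by 0.74 ± 0.20. In all 9 of 24 tested genes of this list were called higher and 0 lower, beside 3.49% of all genes called higher. The list's median difference was 0.79 (0.62 without untreated set 1, 1.17 on deposited values). MYC (0.24 ± 0.23), EGR1 (0.78 ± 0.45) and ATF3 (0.93 ± 0.51) were not called. DUSP6 and EPHA2 stayed called with any array left out. Without untreated set 1 DUSP5, DUSP6 and EPHA2 remained and the other 6 did not (adjusted p 0.093 to 0.42), and DUSP5 lost its call without untreated set 3 (adjusted p = 0.0554). FOSL1, FOSL2, KLF6 and MCL1 were not called without CCL set 3 either (adjusted p 0.0508 to 0.131), KLF6 and MCL1 not without CCL set 1, and MCL1 not without untreated set 3.

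MAP2K6, the kinase that phosphorylates and activates p38, had the lowest difference of all genes tested. It read 6.66 and 6.42 in untreated cells and 3.40, 3.78 and 2.68 with CCL. Its untreated arrays are close together and all CCL arrays lie more than 2 log2 units lower, a 9.58-fold drop (-3.26 ± 0.51, adjusted p = 0.000487). The CCL values are under log2 5, so the true drop may be larger and its rank among genes is uncertain. The call held with any array left out (highest adjusted p 0.0231) and on deposited values (-2.80). Few other kinases of these cascades were called, beside 3.49% of all genes called higher and 1.85% called lower. Of 28 tested members MAPK6 (0.98 ± 0.23), an atypical kinase also called ERK3, and MAPK13 (0.79 ± 0.18), the p38 delta isoform, rose, and MAP3K4 (-0.67 ± 0.18), which acts above p38 and JNK, fell with MAP2K6. MAP2K3, the other activator of p38 in the list, stood at 0.23 ± 0.27 and the JNK activator MAP2K4 at -0.51 ± 0.30. The list's median was 0.17. MAPK6, MAPK13 and MAP3K4 each lost the call without untreated set 1 (adjusted p 0.0693 to 0.44), MAPK13 also without untreated set 3 (adjusted p = 0.0549) and MAPK6 without CCL set 3 (adjusted p = 0.06). MAP3K4 lost it whichever array was left out and on deposited values (adjusted p = 0.54).

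Targets of ATF4 and CHOP rose in part. ATF4 itself read 6.77 and 7.75 in untreated cells and 8.34, 8.15 and 8.48 with CCL. All CCL arrays lie above both untreated ones, which differ by almost 1 log2 unit, and the difference was 1.06 ± 0.23 (adjusted p = 0.00835, but 0.41 without untreated set 1). The untreated mean of ATF4 was 7.26 at 18 h, beside 7.77 at 12 h and 8.06 at 24 h. The CCL mean was 8.21 at 12 h, 8.325 at 18 h and 8.43 at 24 h. ATF4 was called at no other time, nor with the untreated arrays of 12 h and 24 h as the control. Beside 3.49% of all genes called higher, 4 of 17 tested targets rose and 0 fell. They were GDF15 and STC2, given above, VEGFA (1.31 ± 0.31, adjusted p = 0.0147), a growth factor for blood vessels, and SESN2 (0.80 ± 0.21, adjusted p = 0.0259), a stress-induced inhibitor of mTORC1. Another 13 were not called. Among these were the asparagine synthetase gene ASNS (0.96 ± 0.30, adjusted p = 0.0581), CTH of cysteine synthesis (1.30 ± 0.43, adjusted p = 0.0823), DDIT4 (1.00 ± 0.37) and TRIB3 (0.61 ± 0.29). The serine synthesis genes PHGDH (-0.38 ± 0.20), PSAT1 (-0.05 ± 0.19) and PSPH (-0.55 ± 0.18) were not called either. The median of the list was 0.80, and 0.56 to 0.85 with 1 array left out, lowest without untreated set 3. It was 0.50 with the filter at log2 6, 0.61 with the filter on the 5 arrays and 1.19 on deposited values. VEGFA lost its call without untreated set 1 (adjusted p = 0.291) and without CCL set 3 (0.101), and SESN2 not without untreated set 3 (0.224), CCL set 2 (0.0859) or CCL set 3 (0.0561).

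Aminoacyl-tRNA synthetases load tRNAs with their amino acids, and 4 of them rose by similar amounts. MARS1, for methionine, read 7.08 and 7.51 in untreated cells and 8.28, 8.16 and 8.16 with CCL. YARS1, for tyrosine, read 5.95 and 6.06, then at least 6.86 on every CCL array. SARS1, for serine, read 6.36 and 6.45, then 7.36, 7.25 and 7.28, and CARS1, for cysteine, 5.04 and 5.30, then 6.02, 6.07 and 5.95. The 3 CCL arrays of each agree within 0.2 and lie above both untreated arrays. The differences were 0.91 ± 0.16 for MARS1 (adjusted p = 0.00124), 0.91 ± 0.20 for YARS1 (adjusted p = 0.00799), 0.89 ± 0.20 for SARS1 (adjusted p = 0.00882) and 0.85 ± 0.22 for CARS1 (adjusted p = 0.0234). Those 4 of 17 tested cytosolic synthetases rose and 0 fell, beside 3.49% of all genes called higher. Another 6 synthetases were not called but had all CCL arrays above both untreated arrays, a separation that 18.1% of all genes show. These ran from 0.55 for GARS1 to 0.19 for IARS1, and QARS1 alone was lower on average (-0.03 ± 0.15). The median was 0.40 (0.79 on deposited values, against 0.41 for all genes). Without untreated set 1 the median was 0.43 and 0 of the 17 were called by limma (adjusted p 0.0865 to 0.302 for the 4). CARS1 also lost its call without any 1 of the CCL arrays (adjusted p up to 0.0643).

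Of these 4 genes, CARS1 and MARS1 carry the letters TTGCATCA at their start, an instance of the C/EBP-ATF composite motif TGATGNAA read on the opposite strand, and their windows are printed for that reason. The motif is in capitals. CARS1 is at chr11:3057374-3057673 on the minus strand and MARS1 at chr12:57487818-57488117 on the plus strand, again of GRCh38.p14.
CARS1: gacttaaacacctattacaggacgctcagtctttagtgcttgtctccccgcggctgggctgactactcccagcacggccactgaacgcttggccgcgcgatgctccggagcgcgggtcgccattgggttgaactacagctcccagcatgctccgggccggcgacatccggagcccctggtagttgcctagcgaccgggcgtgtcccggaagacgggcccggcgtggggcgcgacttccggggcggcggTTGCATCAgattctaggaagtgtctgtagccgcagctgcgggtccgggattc
MARS1: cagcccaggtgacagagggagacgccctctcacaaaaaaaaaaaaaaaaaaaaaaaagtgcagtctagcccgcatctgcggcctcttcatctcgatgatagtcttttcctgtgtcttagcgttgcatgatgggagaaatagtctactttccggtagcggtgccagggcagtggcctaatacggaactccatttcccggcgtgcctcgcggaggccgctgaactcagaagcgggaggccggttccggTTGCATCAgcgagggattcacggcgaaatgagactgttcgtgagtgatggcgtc
In CARS1 the motif begins 2 bases before the gene's start and in MARS1 4 bases before it, so that it spans the start in both. Searched on both strands, TTGCATCA stood in 6 of the 14 tested cytosolic synthetases that have a promoter in the table, namely AARS1, CARS1, IARS1, MARS1, NARS1 and TARS1. The letters were read from CARS1 and MARS1, so these 2 carriers were fixed in advance. TTGCATCA stood in 0.7% of the tested genes and 1.08% of all promoters of this length. It stood in 2 of 171 genes called higher (1.17%), CARS1 and MARS1 themselves, and in 0 of 89 called lower. Of its carriers among the synthetases, NARS1 (0.17 ± 0.18) and IARS1 (0.19 ± 0.17) were among the least raised. The wider TGATGNAA stood in 7 of 171 genes called higher (4.09%), 2 of 89 called lower (2.25%) and 2.43% of the tested genes.

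Lists of other stress programmes held few calls, beside 3.49% of all genes called higher. Of 14 tested targets of NRF2, the regulator of the oxidative stress response, SQSTM1 (1.20 ± 0.25, adjusted p = 0.00634), SRXN1 (1.16 ± 0.28, adjusted p = 0.0139) and MAFG (1.10 ± 0.20, adjusted p = 0.00232) rose and 0 fell. They encode an autophagy receptor, sulfiredoxin and a small MAF partner of NRF2. TXNRD1 (0.62 ± 0.26), GSR (0.35 ± 0.17) and PRDX1 (-0.05 ± 0.16) were not called. HMOX1, the haem-degrading enzyme, read 6.13 and 7.59 in untreated cells and 6.46, 6.41 and 9.48 with CCL. CCL set 3 alone is high, sets 1 and 2 lie below untreated set 3, and HMOX1 was not called (0.59 ± 0.93, adjusted p = 0.785). Of 5 metallothioneins 0 were called by limma and 2 had an unadjusted p under 0.05, MT1E (0.95 ± 0.37, adjusted p = 0.149) and MT2A (0.81 ± 0.28, adjusted p = 0.106) being the highest. ERN1, the sensor kinase IRE1 of the unfolded protein response, read 3.62 and 4.29, then 5.61, 5.47 and 5.57 and rose by 1.59 ± 0.30 (adjusted p = 0.00237), the 1 call among 15 tested genes of that response, whereas the chaperone genes CALR (-0.32 ± 0.15) and HYOU1 (-0.07 ± 0.22) were not called. Heat shock genes gave 0 calls of 9 by limma and 3 with an unadjusted p under 0.05, with HSPA1A at 0.10 ± 0.27. MAFG alone kept its call with every array left out. Without untreated set 1 SQSTM1 (0.214), SRXN1 (0.142) and ERN1 (0.128) had adjusted p above the threshold, as SRXN1 had without untreated set 3 (0.0508) or CCL set 3 (0.0945).

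Of 14 tested targets of p53, 3 rose and 0 fell, beside 3.49% of all genes called higher. GDF15, the kinase gene PLK3 (1.36 ± 0.30, adjusted p = 0.00806) and SESN2 rose, and GDF15 and SESN2 are also on the list of ATF4 and CHOP targets. BAX (-0.29 ± 0.18), AEN (-0.17 ± 0.22), RRM2B (0.22 ± 0.29), CCNG1 (-0.58 ± 0.32) and SESN1 (-0.59 ± 0.38) were not called. The part of p53 was not tested. The median over the list was -0.07 (-0.07 to 0.05 with 1 array left out, above 0 without untreated set 1). Of 12 hypoxia targets VEGFA rose and so did EGLN1 (0.52 ± 0.14, adjusted p = 0.0318), the oxygen-sensing hydroxylase, while the glycolytic genes LDHA (-0.11 ± 0.23) and PGK1 (0.24 ± 0.21) were not called. In the BCL2 family MCL1 was the 1 call among 11 genes. BBC3 (0.62 ± 0.28), BAK1 (0.22 ± 0.26) and BCL2L1 (0.26 ± 0.23) were not called. Autophagy and lysosome genes mostly had positive differences. Of 39 tested, 33 had a positive difference, as had 3165 of the 6365 genes tested, SQSTM1 was the only call, and the median was 0.21 (0.12 without untreated set 1). On this list are LAPTM5 (1.01 ± 0.30, adjusted p = 0.0524) and CD68 (0.82 ± 0.25, adjusted p = 0.0515), the 2 of 6 measured leukocyte markers above log2 5 on any array here. LAPTM5 read 4.58 and 3.68 in untreated cells and 5.61, 5.29 and 4.5 with CCL, so it passed on CCL sets 1 and 2 only. The mean of the 6 was 4.12 to 4.48 in untreated cells and 4.72 to 4.88 with CCL, and their part in these results was not tested. PLK3 was not called without untreated set 1 (adjusted p = 0.0709), and EGLN1 kept its call only when CCL set 2 was the array left out.

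In polyamine metabolism 2 enzymes of breakdown rose, of 10 genes tested, beside 3.49% of all genes called higher and 1.85% called lower. SAT1, the acetyltransferase that starts polyamine breakdown, read 7.59 and 7.42 in untreated cells and 9.30, 8.85 and 9.11 with CCL, and SMOX, spermine oxidase, read 6.30 and 6.34, then 7.78, 7.69 and 7.92. Both show narrow groups that lie more than 1 log2 unit apart. SAT1 rose by 1.58 ± 0.19 (adjusted p = 2.45e-05) and SMOX by 1.48 ± 0.21 (adjusted p = 0.000153), and both stayed called with any array left out. Synthesis showed no call. ODC1, which makes putrescine, was at 0.20 ± 0.16, SRM at 0.10 ± 0.16, SMS at 0.18 ± 0.19 and AMD1 at 0.37 ± 0.19. OAZ2, an antizyme that marks ODC1 for degradation, fell (-1.07 ± 0.27, adjusted p = 0.0203), though not without untreated set 1 (adjusted p = 0.612), CCL set 1 (0.0674) or CCL set 3 (0.115), nor on deposited values (0.0899).

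Genes of lipid metabolism went both ways, beside 3.49% of all genes called higher and 1.85% called lower. GPAT3, which adds the first fatty acid in glycerolipid synthesis, read 4.93 and 5.05 in untreated cells and 7.36, 7.29 and 8.08 with CCL, and rose 6.0-fold (2.59 ± 0.42, adjusted p = 0.000657). PLIN2, the coat protein of lipid droplets, read 4.79 and 4.94, then 6.37, 6.16 and 8.42. CCL set 3 is 2 log2 units above the other CCL arrays, which themselves lie above untreated cells, and the difference was 2.12 ± 0.49 (adjusted p = 0.0118, but 0.069 without CCL set 3 and 0.153 without untreated set 1). Falling with CCL were the last enzymes of triglyceride synthesis, DGAT1 (-0.90 ± 0.25) and DGAT2 (-0.69 ± 0.20), the desaturase gene SCD (-0.61 ± 0.18) and PNPLA3 (-1.57 ± 0.44), which encodes a lipid-droplet protein. Their adjusted p ran from 0.0333 to 0.0469. FASN (-0.12 ± 0.37), ACACA (-0.13 ± 0.34) and ACLY (0.00 ± 0.20), which build the fatty acid chain, were not called. Altogether 1 of 18 genes of this list rose and 4 fell, with a median of -0.21 that was 0.21 on deposited values and -0.07 without CCL set 3. Only GPAT3 was called without untreated set 1, and the 4 that fell were not called on deposited values, without CCL set 1 (adjusted p 0.0939 to 0.116) or without CCL set 3 (0.102 to 0.164). SCD was not called with the mean of its probe sets either (adjusted p = 0.13). DGAT2 was called without untreated set 3, the other 3 without CCL set 2. In a list of 12 genes around fatty acid oxidation PLIN2 rose and CPT2 fell (-0.87 ± 0.21, adjusted p = 0.0178, 0.302 without untreated set 1, 0.0609 with the mean of its probe sets, 0.261 on deposited values, and no call without CCL set 1 or 3), and CPT1A read 6.59 and 7.87, then 6.62, 6.99 and 8.24, with CCL set 3 and untreated set 3 high and no call.

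Genes of cholesterol synthesis and uptake had lower means with CCL and few calls. Among all genes tested 1.85% were called lower. All 15 tested members had a negative difference (14 on deposited values), beside 3200 of the 6365 genes tested (851 on deposited values). For 14 members every CCL array lay below both untreated arrays, a separation that 18% of all genes show. Yet 3 were called, ACAT2 (-1.11 ± 0.29, adjusted p = 0.0232), MVD (-1.08 ± 0.29, adjusted p = 0.0318) and IDI1 (-0.79 ± 0.22, adjusted p = 0.0348), an acetoacetyl-CoA thiolase and enzymes of the mevalonate pathway. Not called were MSMO1 (-0.87 ± 0.36), SQLE (-0.58 ± 0.24), HMGCS1 (-0.55 ± 0.28), DHCR7 (-0.70 ± 0.27) and the regulator SREBF2 (-0.19 ± 0.18). MSMO1 shows the pattern, with 8.93 and 8.94 in untreated cells and 7.79, 8.16 and 8.24 with CCL. The list's median was -0.69, -0.64 without untreated set 1, and -0.21 on deposited values, where the median of all genes was 0.41 higher. No member was called on deposited values or without untreated set 1 (0 calls by limma in each). Without CCL set 3 the 3 calls were lost too (adjusted p 0.0585 to 0.131), and MVD and IDI1 were not called without CCL set 1, nor IDI1 without CCL set 2. Among targets of ChREBP, the sugar-responsive factor, the ketohexokinase gene KHK read 6.40 and 5.81, then 5.04, 4.88 and 4.82 and fell by 1.19 (adjusted p = 0.00177, 0.125 without untreated set 1 and 0.0628 on deposited values). TXNIP (-1.24 ± 0.78, adjusted p = 0.411) was not called, the CCL arrays spanning 5.86, 6.52 and 5.18. Their list of 7 had a median of -0.70. In the list of insulin and FOXO responsive genes, TRIB1, a pseudokinase that lowers hepatic lipid synthesis, rose with IGFBP1 (1.38 ± 0.24, adjusted p = 0.00124). They are 2 of 8 tested, beside 3.49% of all genes called higher. TRIB1 was not called without untreated set 1 (adjusted p = 0.083), which leaves 1 of 8.

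Cell cycle genes had lower means with few calls. Over all 6365 genes tested, 3200 had a negative difference (851 on deposited values). Every CCL array lay below both untreated arrays for 18% of all genes, and 1.85% were called lower. All 29 tested G1/S and DNA replication genes had a negative difference after normalization (21 on deposited values) and 21 had groups that did not overlap, with a median of -0.61 (-0.25 on deposited values). MCM6 (-1.07 ± 0.31, adjusted p = 0.0449) and MCM5 (-0.86 ± 0.23, adjusted p = 0.0259), subunits of the replicative helicase, were the 2 that fell. MCM6 read 6.84 and 6.42 in untreated cells and 5.57, 5.71 and 5.39 with CCL. GINS2 (-1.28 ± 0.39, adjusted p = 0.0528) and GINS1 (-1.19 ± 0.43, adjusted p = 0.115), of the GINS complex, had larger differences but wider errors. PCNA stood at -0.50 ± 0.27, RRM2 at -0.62 ± 0.23 and CCNE1 at -0.14 ± 0.32. Of 38 G2 and M phase genes 0 were called by limma in either direction, although 33 had a negative difference (21 on deposited values), 20 did not overlap and 12 had an unadjusted p under 0.05. The median was -0.43 (-0.08 on deposited values and -0.26 without CCL set 3). KIF20A, a mitotic kinesin, read 7.88 and 7.64, then 6.73, 7.19 and 5.74, all CCL arrays below the untreated ones but more than 1 unit apart among themselves (-1.21 ± 0.44, adjusted p = 0.119). MKI67 (-0.11 ± 0.37) and CDK1 (-0.05 ± 0.27) were closer to 0. CCL set 3 was the lowest CCL array for KIF20A, MCM6, PCNA and MKI67. ASF1B, a histone chaperone outside these lists, fell (-1.51 ± 0.43, adjusted p = 0.0423), with untreated arrays at 7.39 and 6.05. ASF1B (0.674), MCM5 (0.526) and MCM6 (0.454) had adjusted p above the threshold without untreated set 1, and none of the 3 was called without CCL set 1, without CCL set 3 or on deposited values. ASF1B (0.061) and MCM6 (0.0587) lost their calls without CCL set 2 as well. DNA repair genes gave 0 calls of 16 by limma and 3 with an unadjusted p under 0.05, with a median of -0.29 (0.13 on deposited values, -0.18 without untreated set 1 and -0.15 without CCL set 3).

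**Figure D4:**
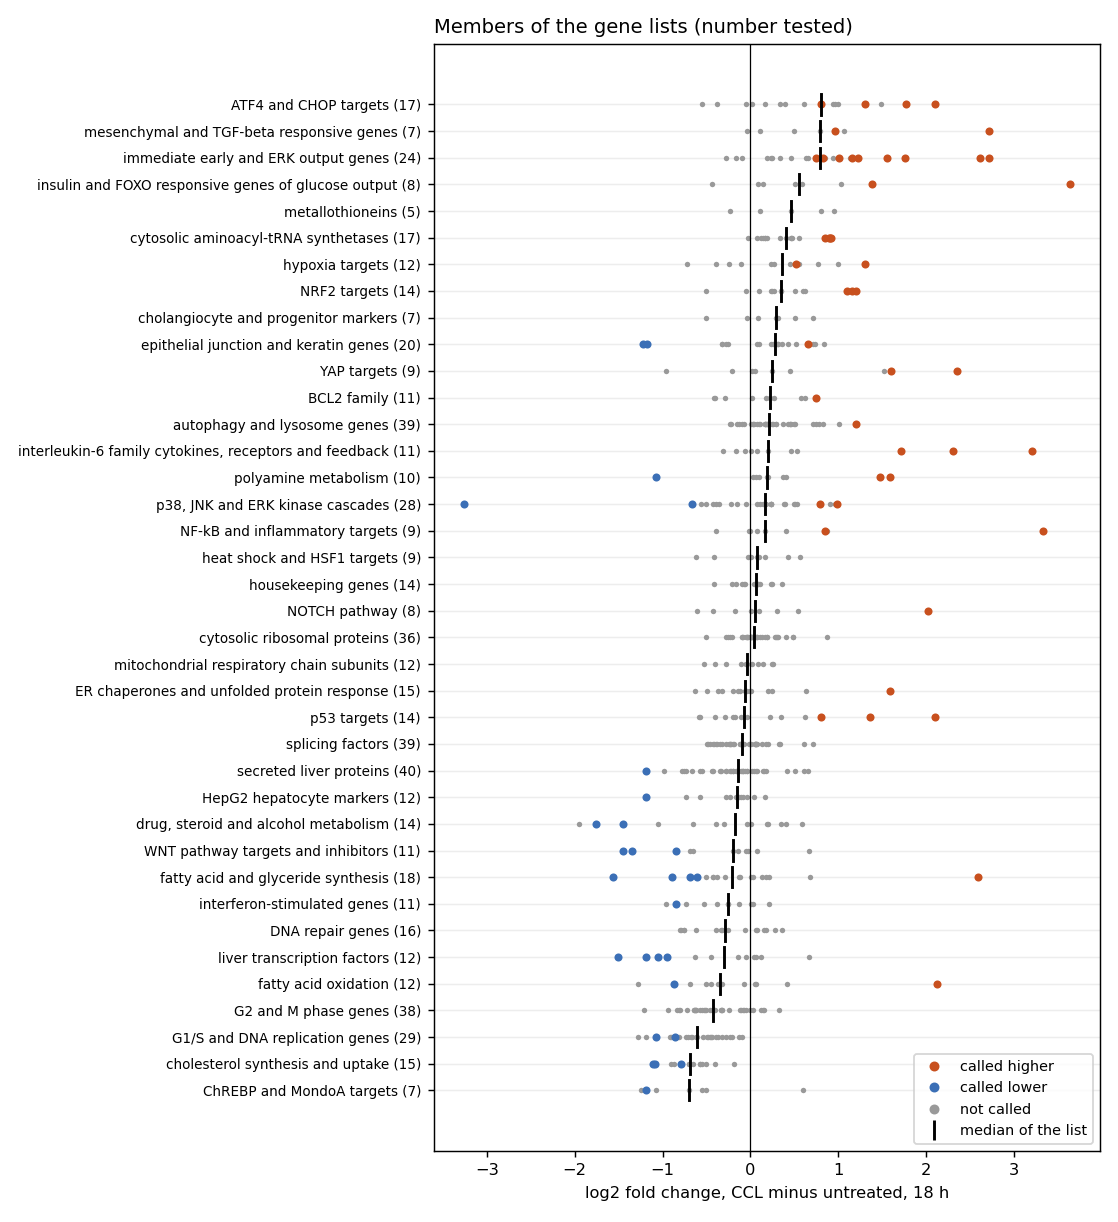
Each dot is a tested gene at its log2 difference, CCL minus untreated at 18 h, grouped by list with the number tested in brackets; orange dots were called higher, blue lower, grey not called, and each black bar is the list's median. Medians run from 0.80 for ATF4 and CHOP targets down to -0.70 for ChREBP and MondoA targets, and the lists of ribosomal proteins, splicing factors and housekeeping genes lie around 0 with no call.

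Of the liver programme, 4 transcription factors fell and so did 1 of its 40 tested secreted products. ONECUT1, also called HNF6, read 6.20 and 5.93 in untreated cells and 5.02, 4.98 and 3.68 with CCL, FOXA1 read 6.56 and 6.74, then 5.78, 5.86 and 5.45, GATA6 5.75 and 5.96, then 4.54, 5.14 and 4.34, and HHEX 6.73 and 6.88, then 5.95, 6.18 and 5.13. In each the untreated arrays agree and all CCL arrays lie below them, CCL set 3 lowest. The differences were -1.50 ± 0.44 (adjusted p = 0.0458), -0.95 ± 0.23 (0.018), -1.19 ± 0.33 (0.0361) and -1.05 ± 0.31 (0.0449). That makes 4 of 12 tested factors, with 0 higher, beside 1.85% of all genes called lower. FOXA2 (-0.63 ± 0.25, adjusted p = 0.165), FOXA3 (0.04 ± 0.37) and PROX1 (-0.05 ± 0.21) were not called. None of the 4 calls held without untreated set 1 (adjusted p 0.125 to 0.361), untreated set 3 (0.078 to 0.134) or CCL set 3 (0.0945 to 0.246), or on deposited values, and GATA6 and HHEX were not called without CCL set 1. Among secreted liver proteins APOA1, the main protein of high-density lipoprotein, alone was called. It read 7.88 and 7.92, then 6.61, 6.87 and 6.67 and fell by 1.19 (adjusted p = 0.0248, 0.187 without untreated set 1 and 0.0944 on deposited values), a call kept only when CCL set 2 was the array left out. ALB (-0.11 ± 0.15), AFP (-0.14 ± 0.16), APOB (-0.04 ± 0.16) and the iron hormone gene HAMP (0.60 ± 0.41) were not called. The fibrinogen genes FGA (-0.55 ± 0.27) and FGG (-0.73 ± 0.27) were not called. They had all CCL arrays below the untreated ones, a separation that 18% of all genes show. The median was -0.15 for the secreted proteins and -0.30 for the transcription factors, and on deposited values 0.08 and 0.18. Leaving out 1 array gave -0.27 to -0.02 for the secreted proteins, lowest without untreated set 1 and highest without untreated set 3, with -0.23 without CCL set 3. It gave -0.56 to -0.18 for the transcription factors, lowest without untreated set 3 and highest without untreated set 1.

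Enzymes of alcohol and carbonyl metabolism were among the steepest falls. ADH6, an alcohol dehydrogenase, read 6.66 and 7.14 in untreated cells and 5.32, 5.92 and 4.19 with CCL, the CCL arrays differing by up to 1.7 log2 units (-1.76 ± 0.50, adjusted p = 0.04). DHRS2, a short-chain dehydrogenase, read 10.75 and 10.32, then 9.49, 9.29 and 8.48 (-1.45 ± 0.34, adjusted p = 0.0129). TMT1A, a thiol methyltransferase of the endoplasmic reticulum, read 7.94 and 8.36, then 5.48, 6.72 and 5.95 (-2.10 ± 0.44, adjusted p = 0.00644). Each had its groups apart by 0.7 or more. Of 14 tested genes of drug, steroid and alcohol metabolism ADH6 and DHRS2 were the 2 called, beside 1.85% of all genes called lower. GSTA2 (-1.96 ± 0.79, adjusted p = 0.165), the gene with the lowest mean difference in that list, was not called. Its untreated arrays lay at 4.42 and 4.88. Components of WNT signalling fell as well. DKK4, a secreted WNT inhibitor, went from 5.01 and 4.33 to 3.48, 3.06 and 3.13 (-1.45 ± 0.32, adjusted p = 0.00799), SP5, a transcription factor induced by WNT, from 8.21 and 7.57 to 6.27, 6.78 and 6.59 (-1.34 ± 0.33, adjusted p = 0.0188), and LGR5, a receptor for R-spondins, from 9.19 and 9.36 to 8.55, 8.44 and 8.29 (-0.85 ± 0.21, adjusted p = 0.018). They are 3 of 11 tested, with 0 higher, beside 1.85% of all genes called lower. The list's median was -0.20 (0.17 on deposited values, -0.32 without untreated set 1 and -0.43 without untreated set 3). DKK4 (adjusted p = 0.0625) and LGR5 (0.176) were not called on deposited values, nor was ADH6 (0.102). AXIN2 (-0.03 ± 0.16), NKD1 (0.07 ± 0.23) and ZNRF3 (-0.14 ± 0.17), feedback targets of the same pathway, were not called and lay near 0. Without untreated set 1 none of these 6 genes was called (adjusted p 0.0629 to 0.35), and ADH6, DHRS2, SP5 and LGR5 were not called without CCL set 3. ADH6 and SP5 were not called without CCL set 1, nor ADH6 and LGR5 without untreated set 3.

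Genes of cell shape and adhesion changed in a mixed way, beside 3.49% of all genes called higher and 1.85% called lower. AXL, a receptor tyrosine kinase that YAP induces, read 4.82 and 4.80 in untreated cells and 7.46, 7.07 and 6.96 with CCL, and SNAI2, a repressor of epithelial genes, read 3.25 and 4.14, then 6.46, 6.51 and 6.26. For both, the CCL arrays lie at least 2 log2 units above the higher untreated array. AXL rose by 2.35 ± 0.30 (adjusted p = 6.22e-05) and SNAI2 by 2.71 ± 0.31 (adjusted p = 2.45e-05), and both kept the call with any array left out. MYOF, a membrane-repair protein, rose too (1.59 ± 0.34, adjusted p = 0.00664, 0.172 without untreated set 1), which with AXL makes 2 of 9 tested YAP targets. The YAP targets CCN2 (-0.96 ± 0.52) and ANKRD1 (1.51 ± 0.81) pointed in opposite directions with no call. SNAI2 and the adhesion molecule gene L1CAM (0.97 ± 0.24, adjusted p = 0.0198) were the 2 called of 7 mesenchymal and TGF-beta responsive genes, while FN1, for fibronectin, was not called (0.11 ± 0.15). In epithelial junctions the plakophilin gene PKP2 read 8.08 and 8.14, then 7.02, 7.25 and 6.54 and fell by 1.18 (adjusted p = 0.00172), called with any array left out but not on deposited values (adjusted p = 0.0549). TJP3 of tight junctions fell (-1.22 ± 0.31, adjusted p = 0.0203) and the desmosomal cadherin gene DSG2 rose (0.65 ± 0.17, adjusted p = 0.0217), but leaving out untreated set 1 ended both calls (adjusted p 0.281 and 0.237), as did leaving out CCL set 3 (0.131 and 0.0607), and DSG2 was not called without CCL set 1, nor TJP3 on deposited values (0.0959). KRT18 (0.43 ± 0.21), EPCAM (0.32 ± 0.21) and CLDN1 (-0.33 ± 0.29) were among the 17 of 20 not called. SFN, the 14-3-3 sigma gene found in many epithelia, read 6.79 and 7.05, then 8.53, 8.67 and 9.30 and rose by 1.91 ± 0.31 (adjusted p = 0.000657). L1CAM lost its call when any 1 array other than CCL set 2 was left out.

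Other genes with large differences have roles outside the pathways above. UCA1, a long non-coding RNA, read 5.02 and 4.37 in untreated cells and 8.06, 7.76 and 8.28 with CCL, a 10.1-fold rise (3.33 ± 0.53, adjusted p = 0.000622) called with any array left out, although a second probe set gave 0.36. AQP3, a channel for water and glycerol, read 3.20 and 4.60, then 6.78, 6.85 and 6.25, with untreated set 1 the lower of a wide pair (2.73 ± 0.43, adjusted p = 0.000621, 0.0629 without that array). Its relative AQP11 fell (-0.79 ± 0.18, adjusted p = 0.0131, 0.135 without untreated set 1 and 0.0642 without CCL set 1). VNN1, a pantetheinase, read 3.52 and 3.48, then 6.62, 6.13 and 5.15 (2.46 ± 0.52, adjusted p = 0.00664, 0.0907 without untreated set 1). PAQR5, a membrane progesterone receptor, read 3.77 and 3.92, then 6.08, 5.91 and 6.69 (2.38 ± 0.35, adjusted p = 0.000283). RGS10, which quickens the shut-off of G proteins, read 2.52 and 2.77, then 4.78, 4.50 and 5.51 (2.29 ± 0.40, adjusted p = 0.00136, 0.0519 without untreated set 1). For all 5 rising genes the lowest CCL array lay above the higher untreated one. The untreated arrays of AQP3, VNN1, PAQR5 and RGS10 were all under log2 5, those of RGS10 under log2 3, and their untreated means were under log2 5 at every time, so these differences may be lower bounds. At the other end, SMLR1 fell from 9.44 and 9.64 to 7.98, 8.11 and 8.02, a tight set of CCL arrays (-1.50 ± 0.34), and with it fell MPV17L, a relative of the inner-membrane protein MPV17 (-1.45 ± 0.25). The mitochondrial carrier gene SFXN2 (-1.42 ± 0.29), the transcription factor gene SOX12 (-1.35 ± 0.24), the antisense RNA LBX2-AS1 (-1.47 ± 0.31) and PDGFRL, for a PDGF receptor-like protein (-1.68 ± 0.49), fell too. On deposited values AQP11 (adjusted p = 0.267) and PDGFRL (0.123) were not called. Their adjusted p ran from 0.00136 to 0.0469, and without untreated set 1 from 0.0709 to 0.211, so none of the 6 was called there. SMLR1 was not called without untreated set 3 (adjusted p = 0.0514) and PDGFRL not without any 1 array.

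Much of the cell's basic machinery gave no call. Of 36 tested cytosolic ribosomal proteins, 39 splicing factors, 12 respiratory chain subunits and 14 housekeeping genes 0 were called by limma, with 4, 4, 0 and 0 at an unadjusted p under 0.05, and their medians were 0.04, -0.10, -0.04 and 0.06. With 1 array left out the medians ran over -0.03 to 0.10, -0.15 to -0.08, -0.07 to 0.05 and -0.03 to 0.08. GAPDH was at -0.21 ± 0.27 and TBP at -0.09 ± 0.20. CCND1, for cyclin D1, read 8.24 and 8.25, then 8.23, 8.04 and 7.96 and was not called (-0.16 ± 0.16). Among interferon-stimulated genes IFI35 fell (-0.84 ± 0.22, adjusted p = 0.0279, 0.178 without untreated set 1 and 0.28 on deposited values), a call held without CCL set 2 and lost without any 1 of the other arrays, while ISG15 (0.00 ± 0.21) and RIGI (0.21 ± 0.25) were not called.

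Leaving out each array in turn left 32 of the 340 calls standing every time, 28 higher and 4 lower. The 28 include IGFBP1, UCA1, IL11, SNAI2, GPAT3, PAQR5, AXL, LIF, GDF15, JAG1, SFN, STC2, IL6R, SAT1, SMOX, DUSP6, MAFG and EPHA2, described above. The others called higher are KYNU, of tryptophan breakdown (1.61 ± 0.23), CSGALNACT2, of chondroitin sulfate synthesis (2.13 ± 0.34), the membrane fusion protein STX3 (1.29 ± 0.24), the fatty acid activator ACSL5 (1.13 ± 0.23) and EPS8, which links receptors to actin (1.11 ± 0.17). With them are RB1CC1, an autophagy initiation protein (1.08 ± 0.19), MET, the receptor of hepatocyte growth factor (0.90 ± 0.16), DENND4A (1.06 ± 0.17), EHBP1 (0.89 ± 0.15) and IBTK (0.85 ± 0.16). MET read 7.68 and 7.46 in untreated cells and 8.42, 8.52 and 8.47 with CCL, so a difference below 1 log2 unit held where the arrays agree. The 4 called lower are MAP2K6, PKP2, REEP6 (-1.25 ± 0.19) and BTBD2 (-0.84 ± 0.17). REEP6, a membrane-shaping protein of the endoplasmic reticulum, read 8.02 and 7.97, then 6.57, 6.71 and 6.93. These genes were picked by their calls in the same arrays, so the list describes which calls do not turn on 1 array.

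Of 114 microRNA genes tested, 3 were called higher and 0 lower (2.63%, beside 5.34% of all genes). Their probe sets measure RNA from the gene region and not the mature strand. The mature sequences from RefSeq are given to identify the genes, as RNA with the seed, bases 2 to 8, in capitals, and no seed is shared among them.
hsa-miR-3189-5p: uGCCCCAUcugugcccuggguagga
hsa-miR-3189-3p: cCCUUGGGucugaugggguag
hsa-miR-2909: gUUAGGGCcaacaucucuugg
hsa-miR-127-5p: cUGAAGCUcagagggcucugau
hsa-miR-127-3p: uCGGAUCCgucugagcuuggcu
MIR3189 read 5.51 and 5.57 in untreated cells and 8.34, 6.81 and 7.90 with CCL (2.14 ± 0.51, adjusted p = 0.0139). It lies within GDF15 (chr19:18386158-18389176 in GRCh38.p14), which rose by 2.09 ± 0.27, and RNA of the host gene and of the microRNA cannot be told apart by the probe set. MIR2909 read 6.60 and 7.61, then 8.79, 8.40 and 9.08 (1.65 ± 0.35, adjusted p = 0.00661), and lies within AATF, which was not called (0.23 ± 0.18). A second probe set of MIR2909 gave -0.52. MIR127 read 3.90 and 5.06, then 5.15, 5.28 and 5.78, the highest untreated and lowest CCL array being close (0.92 ± 0.27, adjusted p = 0.0455). Its coordinates lie within those of RTL1, which was not tested and whose strand was not compared with that of MIR127. Without untreated set 1 the adjusted p was 0.159 for MIR3189, 0.255 for MIR2909 and 0.811 for MIR127. MIR3189 and MIR127 were not called without CCL set 1 or CCL set 3 either, nor MIR127 without CCL set 2.

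The changes at 18 h were set beside those of the nearest times, each against its own untreated arrays, so that no array is shared. Of the 222 genes called higher at 18 h, 217 (97.75%) were also higher on average at 12 h and 216 (97.3%) at 24 h, where 49.57% and 50.68% of all genes are. Called at both times were 84 with 12 h, which is 37.84% of the 18 h genes and 72.41% of the 116 genes called higher at 12 h (1.82% of those tested). With 24 h 138 were shared, 62.16% of the 18 h genes and 46.94% of the 294 called there (4.62%). Of the 118 genes called lower, 107 were lower at 12 h and 116 at 24 h. In this direction 8 and 55 were called at both, of 30 (0.471%) and 165 (2.59%) called lower at those times. The median difference of the 222 genes was 1.06 at 18 h, 0.65 at 12 h and 0.92 at 24 h, and that of the 118 genes was -0.94, -0.46 and -0.72. The genes were chosen by their values at 18 h, which favours larger values there.

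**Figure D5:**
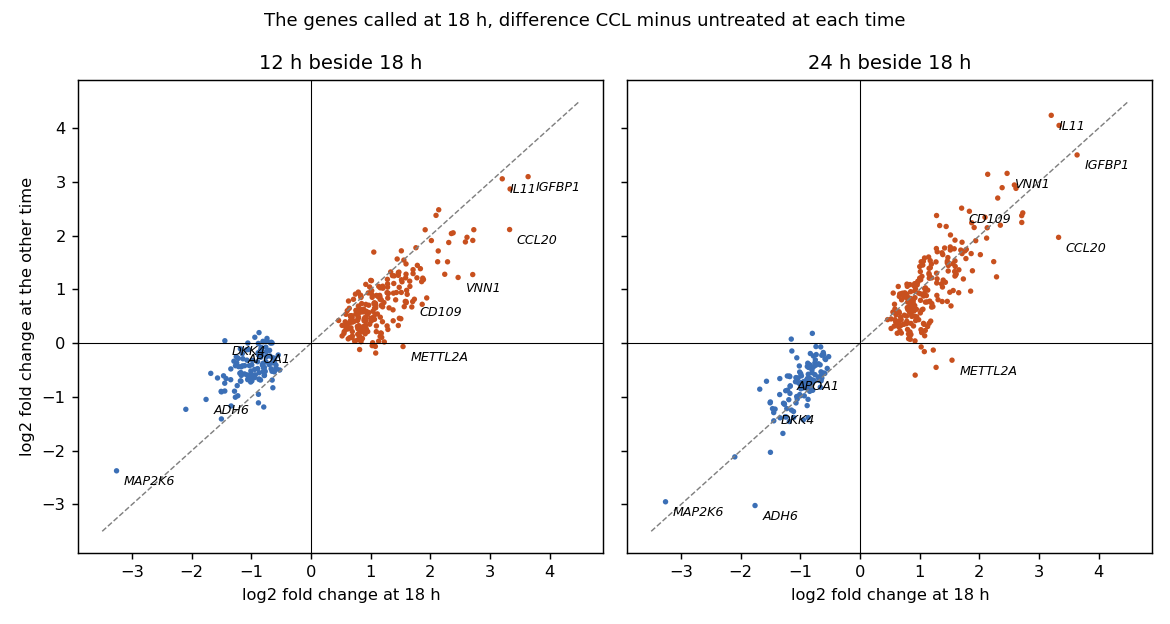
Each point is a gene called at 18 h, higher (orange, 222) or lower (blue, 118), with its log2 difference, CCL minus untreated, at 18 h on the horizontal axis and at 12 h (left) or 24 h (right) on the vertical axis; the dashed line marks equal differences. At 12 h 217 of the orange points lie above 0, at 24 h 216 do, and ADH6 and CCL20 lie far from the line at 24 h.

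No single gene was shown to respond differently at 18 h. The test of the difference between effects gave 0 genes by limma against 12 h, 0 against 24 h and 0 against the mean of the other 4 times, with 231, 237 and 478 genes at an unadjusted p under 0.05 and lowest adjusted p of 0.993, 0.998 and 0.540. Without untreated 18 h set 3, so with untreated set 1 alone, 37, 29 and 142 genes passed. Genes called at 18 h and at no other time, 66 higher and 49 lower, are therefore not shown to be particular to it. IL11 rose by 3.06 ± 0.32 at 12 h, 3.20 at 18 h and 4.24 ± 0.36 at 24 h, and IGFBP1 by 3.10 ± 0.43, 3.64 and 3.50 ± 0.48. CCL20 stood at 2.11 ± 0.46, 3.33 ± 0.51 and 1.97 ± 0.51, highest at 18 h, the time at which its untreated arrays disagree. VNN1 was called at 18 h and 24 h (3.16 ± 0.52) but not at 12 h (1.22 ± 0.47). MAP2K6 fell at all 3 times (-2.38 ± 0.45 at 12 h and -2.95 ± 0.51 at 24 h). ADH6 stood at -3.02 ± 0.50 at 24 h (adjusted p = 0.000582), beside -1.76 ± 0.50 at 18 h. DKK4 (0.04 ± 0.28) and APOA1 (-0.11 ± 0.28) were not called at 12 h, and APOA1 (-0.61 ± 0.31) not at 24 h either. The synthetases MARS1 (0.17 ± 0.14, then 0.60 ± 0.16) and CARS1 (0.07 ± 0.19, then 0.79 ± 0.22) were called at 24 h and not at 12 h. By limma 19 genes passed as higher at all 5 times and 0 as lower, among them IL11, LIF, IGFBP1, GDF15, JAG1, SNAI2, AXL, SAT1, DUSP5 and EPHA2.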

How the data were processed

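Gene expression of HepG2 cells was measured on 29 Affymetrix HuGene arrays in 11 groups of treatment and time. The authors deposited log2 expression per probe set. The submitters' processing notes name RMA and Affymetrix Expression Console 1.1, and do not say which arrays were normalized together. All 29 arrays were quantile-normalized over 53617 probe sets. Of these, 16098 carry 1 gene symbol in the platform annotation, and all of them matched a RefSeq gene of GRCh38.p14 by gene ID. They stand for 14884 genes, 779 with more than 1 probe set, of which the one with the highest mean was used. The 6365 genes that passed log2 5 on 2 or more arrays entered the test. limma 3.58.1 in R 4.3.3 was fitted with 1 mean per group (18 residual degrees of freedom), and p-values were adjusted by Benjamini-Hochberg over all genes tested. The threshold was 0.05. No reads underlie these values, and the small number of arrays limits the precision.

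The rule for named genes took the 14 highest and 14 lowest differences among called genes whose groups did not overlap, up to 5 called members of each list by size, and 15 genes whatever they showed. HNF4A, 1 of these, was not tested. Other list members are named as examples chosen after their values were seen. The 45 lists hold 1332 genes, 799 of them with a named probe set and 610 tested. The comparison, the lists and the rules were chosen with earlier results of these data known. Lists are described by counts and medians, with no test. The fit was tested on simulated data for this comparison over 6365 genes. It recovered 63 of 100 genes changed by 1 log2 unit and 99 of 100 changed by 2, with 8 false calls. The simulated arrays of a gene all had the same spread, and none stood apart as untreated set 1 did. These counts therefore do not describe a comparison with such an array. Alternatives changed the scaling, the filter, the probe set rule, the arrays in the fit, the block by set and the control, and left out each array.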

Additional observations from a re-analysis of the deposited data

Results flagged for a closer look

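Probe sets that the platform annotation used here does not tie to 1 gene were left out of the comparison, and 169 of them passed the same test. Of 37519 such probe sets 7490 lay above the filter on dim values. With CCL 112 were called higher and 57 lower by limma, adjusted over these 7490. That is 2.26% of them, beside 5.34% of the named genes. They were noted because a signal appears in data outside the comparison of named genes, and what they measure is not named here.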

How the results depend on the processing

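The direction of the 340 called differences was the same in each setting tried except for 1 gene with the untreated arrays of 12 h and 24 h as the control and 1 gene with both untreated set 1 and CCL set 3 left out. Leaving out 1 array cannot turn the sign where groups do not overlap. That holds for 336 of these genes and for all 83 named with a call. The counts moved more. Genes called higher numbered 222, and 772 on deposited values, 133 on deposited values centred on the median of all probe sets, 99 with the 5 arrays of 18 h alone, and 373 with the untreated arrays of 12 h and 24 h as the control. Genes called lower numbered 118, and 11 on deposited values, 36 with the 5 arrays alone, 66 with array weights and 194 with the other control. Leaving out 1 array in turn gave 32 to 354 higher and 5 to 133 lower. Leaving out both untreated set 1 and CCL set 3, an alternative chosen after seeing the data, gave 11 higher and 1 lower. The tests of 18 h against other times gave 0 genes, and with no filter 1 gene against 12 h. Leaving out 1 array gave 0 to 37 genes against 12 h, 0 to 29 against 24 h and 0 to 142 against the mean of the other 4 times. Of the 83 genes named with a call, 27 lost it on deposited values, 62 without untreated set 1 and 37 without CCL set 3. With the 5 arrays of 18 h alone 41 lost it, among them ATF4, VEGFA, SESN2, MARS1, CARS1, SQSTM1, PLIN2 and FOXA1. With the untreated arrays of 12 h and 24 h as the control 11 lost it. They were PDGFRL, MAPK6, MAP3K4, MVD, DGAT1, DGAT2, MCM5, APOA1, TJP3, OAZ2 and ATF4. None of the 83 changed sign in any setting. Of 798 list medians under the alternatives 118 moved beyond the spread between arrays, 40 of them on deposited values.

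Set numbers are shared between the groups, and same-numbered arrays deviated together in part. Of 12 pairs 9 had a correlation of deviations above 0.1 (-0.0801 to 0.460), and 7 of 12 arrays correlated best with their own number, so the sets were not taken as pairs. With the set number as a fixed replicate block 441 genes were called higher and 278 lower, and as a random replicate block 320 and 176. All 340 calls were among them in both. In the fixed block 10 G2 and M phase genes, 10 G1/S and replication genes and 6 cholesterol genes were called lower, against 0, 2 and 3 without it, and TXNIP was called lower (adjusted p = 0.0362). The cause of these differences was not tested.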

Other observations

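Single arrays stood out for some genes, which were picked after their values were seen. HMOX1, PLIN2 and CPT1A were highest on CCL set 3, and PLIN2 at 8.42 was 2 log2 units above the other CCL arrays. For 4 called genes the groups overlap although the test was passed. METTL2A read 3.52 on untreated set 1, 6.59 on untreated set 3 and 6.58, 6.90 and 6.31 on the CCL arrays. CBX6 read 3.63 and 5.43, then 5.37, 5.82 and 6.22, and TRMO read 2.67 and 4.89, then 4.81, 4.94 and 5.27. DGUOK, a mitochondrial deoxyguanosine kinase, read 7.54 and 5.93, then 5.32, 5.37 and 6.09. In each of METTL2A, CBX6, TRMO and DGUOK untreated set 1 lies apart from the other 4 arrays.

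Cholangiocyte and progenitor genes, a measure of another liver lineage, gave 0 calls by limma among 7 tested, 1 of them with an unadjusted p under 0.05. Genes for mitochondrial aminoacyl-tRNA synthetases and amino acid transporters have no probe set named here and were not analysed.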
